A study of Homo sapiens with 66 samples.

Results

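The 10 genes described here are EIF2AK2, which encodes the dsRNA-activated kinase PKR, and 9 genes of the integrated stress response (PPP1R15A, ATF4, ATF3, DDIT3, TRIB3, CHAC1, ASNS, SESN2 and INHBE). They were picked by their Ensembl identifiers out of 57820 genes in the gene count tables, and each one was found in both tables. Expression was measured by total RNA sequencing of Cas9-transgenic THP-1 cells, a human monocytic leukemia line. Study 1 used a STING-deficient clone and holds 48 libraries in 16 groups of 3. The cells of study 1 were nucleofected with a nontarget gRNA (CTRL), a gRNA labelled GFP, an ADAR gRNA, an hnRNPC gRNA, or the ADAR and hnRNPC gRNAs together (ADAR+hnRNPC), and were sampled on days 3, 4 and 5. In the last group of study 1, CTRL cells received 1000 U/ml IFN-α for 24 h and were taken on day 4. Study 2 used a WT clone and other ADAR and hnRNPC gRNAs, and holds 18 libraries in 9 groups of 2, all from day 4: total and digitonin-soluble (cytosolic) RNA of CTRL, hnRNPC, ADAR and ADAR+hnRNPC cells, and digitonin-insoluble RNA (called nuclear here, and also enriched in mitochondria) of hnRNPC cells. Cells with a single targeted gene also received the nontarget gRNA, all cells of both studies carried Cas9, and each study rests on 1 clone. ADAR is the enzyme that deaminates adenosine to inosine in double-stranded RNA, and hnRNPC is a nuclear protein that binds uridine tracts of nascent transcripts, many of them in Alu elements.

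PKR binds double-stranded RNA, dimerizes and phosphorylates the translation factor eIF2 on its alpha subunit. Other eIF2 kinases respond to amino acid shortage, heme deficiency or misfolded protein in the endoplasmic reticulum, and all of them lower general translation while permitting translation of a few mRNAs with upstream reading frames, among them ATF4. The transcription factor ATF4 then induces genes for amino acid synthesis and transport, redox control and further transcription factors, and PPP1R15A brings a phosphatase to eIF2 and ends the response. The EIF2AK2 gene is itself IFN induced. None of the values below measure PKR activity, eIF2 phosphorylation or protein, and in bulk RNA a change in the number of expressing cells and a change in RNA per cell cannot be told apart.

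Libraries held 95107690 to 152829008 counted fragments over genes in study 1 and 49666958 to 73873756 in study 2. Levels are CPM, the usual depth-scaled count, after TMM scaling of the library totals. A gene was called at a Benjamini-Hochberg adjusted p of 0.05 or less over all genes tested (edgeR's quasi-likelihood test) together with a log2 fold change of 1 or more in either direction, and all 10 genes passed the filter on low counts. HNRNPC mRNA was 779 ± 48.2 CPM in CTRL cells and 345 ± 9.49 CPM in hnRNPC cells on day 4 (SD, n = 3 each). ADAR mRNA was not called lower in ADAR cells of study 1 on any day (log2 fold change of -0.13 on day 4) and was called lower only in cytosolic RNA of study 2, by -1.06. Of 10 monocytic markers 8 were expressed at 1 CPM or more in both studies, whereas CD14 and CD68 were below it.

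One library has to be named before the results, because the day 5 comparisons rest on it. In CTRL day 5 replicate 3, CHAC1 was 12.4 CPM against a mean of 0.846 CPM in the other CTRL libraries of that day, which is 14.6-fold. INHBE was 6.50-fold, ASNS 3.78-fold, SESN2 3.12-fold, ATF3 2.30-fold, TRIB3 2.00-fold and ATF4 1.92-fold higher in this library than in the other CTRL libraries of the day, whereas EIF2AK2 was 1.13-fold higher. Over all 13193 genes tested, 63 were more than 2-fold from the other libraries of the group in this library, inside the study 1 range of 8 to 255. It is therefore kept in the main values, and the count of genes called in each day 5 comparison is given with it and without it. ADAR day 5 replicate 3 was also the highest of its group in CHAC1 (10.9 CPM, with 4.22 and 3.42 CPM in the others) and in ATF4 (442 CPM, with 302 and 279 CPM). The fits without CTRL day 5 replicate 3 kept this ADAR library, and no fit left out both. Why the libraries numbered 3 of these day 5 groups stand apart in these genes was not tested. In study 2 both CTRL total libraries differed from each other by more than 2-fold in 319 of 13650 genes, the most in that study (range 36 to 319), with INHBE at 1.22 and 0.364 CPM and ATF4 at 360 and 244 CPM. The total RNA comparisons rest on this pair and are given with each of them left out.

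The set moved most in ADAR+hnRNPC cells. On day 3, 3 of 10 genes were called higher (ATF3, CHAC1 and INHBE), where 1.17% of all genes tested were called. On day 4, 9 of 10 genes were called higher against a background of 4.71%, and on day 5 the count was again 9, against 15.6%. ATF4 was the gene not called on either day. From day 3 to day 5 the median log2 fold change of the 10 genes was 0.67, 1.76 and 2.54, while the median over all genes stayed between -0.04 and -0.02. Without CTRL day 5 replicate 3 the day 5 count was 9, the background 15.8% and the median 3.12.

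Single targeting gave fewer calls in study 1. In hnRNPC cells edgeR called no gene of the set on day 3, against a background of 1.04%. ATF3, EIF2AK2 and DDIT3 passed an unadjusted p under 0.05 there (3 genes), where 6153 of all 13193 genes tested did. Both DESeq2 and limma voom called 0 of the set. On day 4, ATF3 and DDIT3 were called, where 3.22% of all genes were. On day 5, ATF3 and DDIT3 were called higher and CHAC1 lower, where 7.72% of genes were called. Without CTRL day 5 replicate 3, hnRNPC day 5 cells had 6 genes called, all higher, against 7.76%. In ADAR cells edgeR called no gene of the set on day 3 (background 0%, with 535 genes at an unadjusted p under 0.05, none of them in the set), day 4 (0.0682%) or day 5 (0.273%). At an unadjusted p under 0.05, 4 genes of the set passed in ADAR cells on day 4 and 5 on day 5, where 1705 and 3543 of all 13193 genes did. DESeq2 called 0 on each of these days, and limma voom called 0, 0 and 1. With the replicate number as a block, INHBE was called in ADAR cells on day 4 (1.53 ± 0.34, adjusted p = 0.0124) and day 5 (1.21 ± 0.32, adjusted p = 0.00888), and CHAC1 was no longer called in hnRNPC cells on day 5 (-0.92, adjusted p = 0.0633). Without CTRL day 5 replicate 3, CHAC1 and INHBE were called in ADAR cells on day 4 (background 0.0834%) and 5 genes on day 5 (0.462%). The day 5 count still includes ADAR day 5 replicate 3, the highest of its group in CHAC1 and ATF4, so the removal was on the CTRL side only. These comparisons share their CTRL libraries, so their values are not independent of each other.

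**Figure D1:**
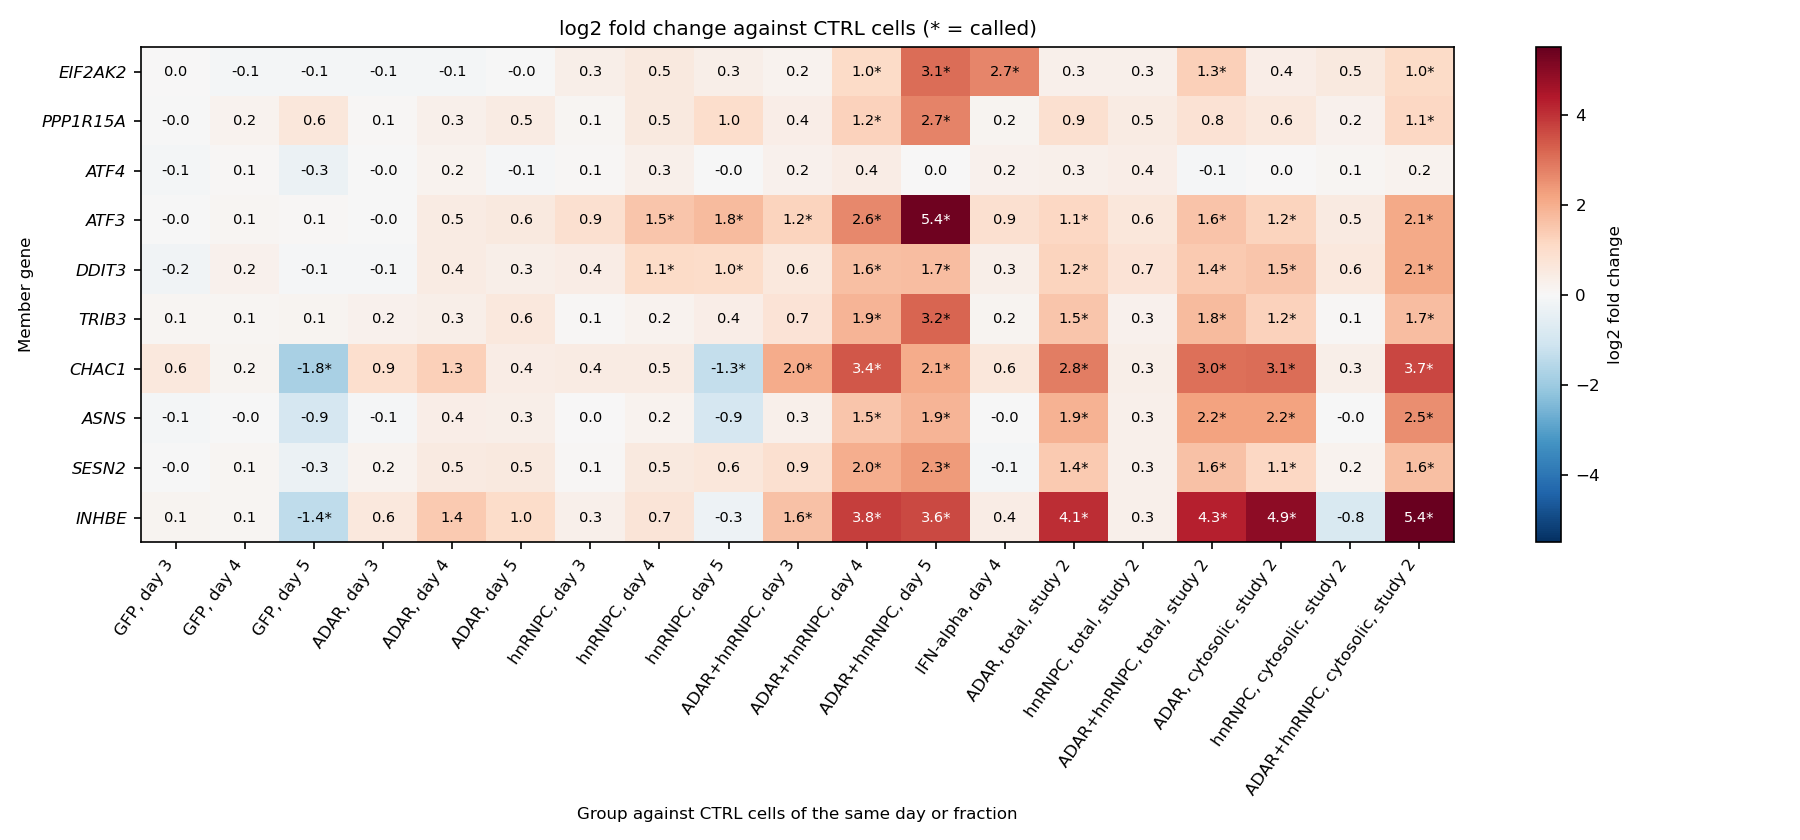
Log2 fold change of each of the 10 genes (rows) against CTRL cells of the same day or RNA fraction (columns) from edgeR, with an asterisk where the gene was called. The ADAR+hnRNPC columns and the ADAR columns of study 2 hold most of the asterisks, the ATF4 row holds none, and the blue cells of CHAC1 and INHBE on day 5 depend on CTRL day 5 replicate 3.

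GFP cells give the spread of a control gRNA. No gene of the set was called on day 3 (background 0.0227%) or day 4 (0%), and DESeq2 and limma voom called none of them. None of the 10 had an unadjusted p under 0.05 on these days, where 471 and 908 of all genes did. On day 5, CHAC1 (-1.79) and INHBE (-1.39) were called lower in GFP cells, where 0.212% of genes were called. Neither was called without CTRL day 5 replicate 3, and their log2 fold changes were then 0.68 and 0.11 (background 0.189%). Both calls were also lost without CTRL day 5 replicate 2 or any 1 of the GFP day 5 libraries, and ASNS was called without CTRL day 5 replicate 1 or 2. The same library set the comparison of CTRL cells over time: CHAC1 (2.52) and INHBE (2.22) were called higher on day 5 than on day 3 (background 0.667%), and neither was called without it (0.05 and 0.71, background 0.568%). ATF3 was called as well without CTRL day 5 replicate 1 or 2.

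In CTRL cells on day 4 the genes spanned a wide range of levels per kilobase of exon. ATF4 was highest at 94.9 ± 5.35 CPM per kb (SD, n = 3). DDIT3 (15.04 ± 2.49 CPM per kb) and TRIB3 (14.4 ± 1.66 CPM per kb) followed and overlapped each other. EIF2AK2 (6.31 ± 0.419 CPM per kb) and PPP1R15A (6.26 ± 0.125 CPM per kb) were next and also overlapped, as did ASNS (2.10 ± 0.309 CPM per kb) and SESN2 (2.04 ± 0.160 CPM per kb). CHAC1, ATF3 and INHBE were lowest, at 0.491, 0.411 and 0.343 CPM per kb, and their libraries overlapped. The lowest genes of the set are thus the ones whose fold changes rest on the fewest counts.

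EIF2AK2 lies on the reverse strand at chr2:37326353-37384665 (GRCh37). In CTRL cells it was measured at 58.3, 61.5 and 65.4 CPM on day 3, at 64.6, 73.7 and 70.7 CPM on day 4 and at 71.8, 79.0 and 85.1 CPM on day 5. In ADAR+hnRNPC cells it was at 67.4, 67.2 and 75.8 CPM on day 3, at 110, 152 and 167 CPM on day 4, and at 597, 653 and 719 CPM on day 5. All ADAR+hnRNPC libraries lay above the CTRL libraries of their day, narrowly on day 3 and by a wide margin on day 5. The log2 fold change was 0.18 ± 0.10 (SE, adjusted p = 0.195) on day 3, 1.04 ± 0.10 (adjusted p = 1.17e-10) on day 4 and 3.06 ± 0.11 (adjusted p = 4.87e-24) on day 5, or 3.12 without CTRL day 5 replicate 3. The day 4 call sits at the fold threshold, and it was lost without CTRL day 4 replicate 1 or ADAR+hnRNPC day 4 replicate 2 or 3, with 8 genes of the set then called.

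In hnRNPC cells EIF2AK2 was at 93.4, 104 and 108 CPM on day 4, above the CTRL libraries, with a log2 fold change of 0.54 ± 0.10 (adjusted p = 3.94e-05) that is under the fold threshold. The corresponding values were 0.34 on day 3 and 0.30 on day 5, both with an adjusted p of at most 0.05. In ADAR cells EIF2AK2 was at 60.7, 68.8 and 66.1 CPM on day 4 and overlapped CTRL cells on every day. IFN-α gave 370, 447 and 514 CPM, a log2 fold change of 2.67 ± 0.11 (adjusted p = 6.71e-22). The level in IFN-α cells lay between those of ADAR+hnRNPC cells on days 4 and 5 without overlap.

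**Figure D2:**
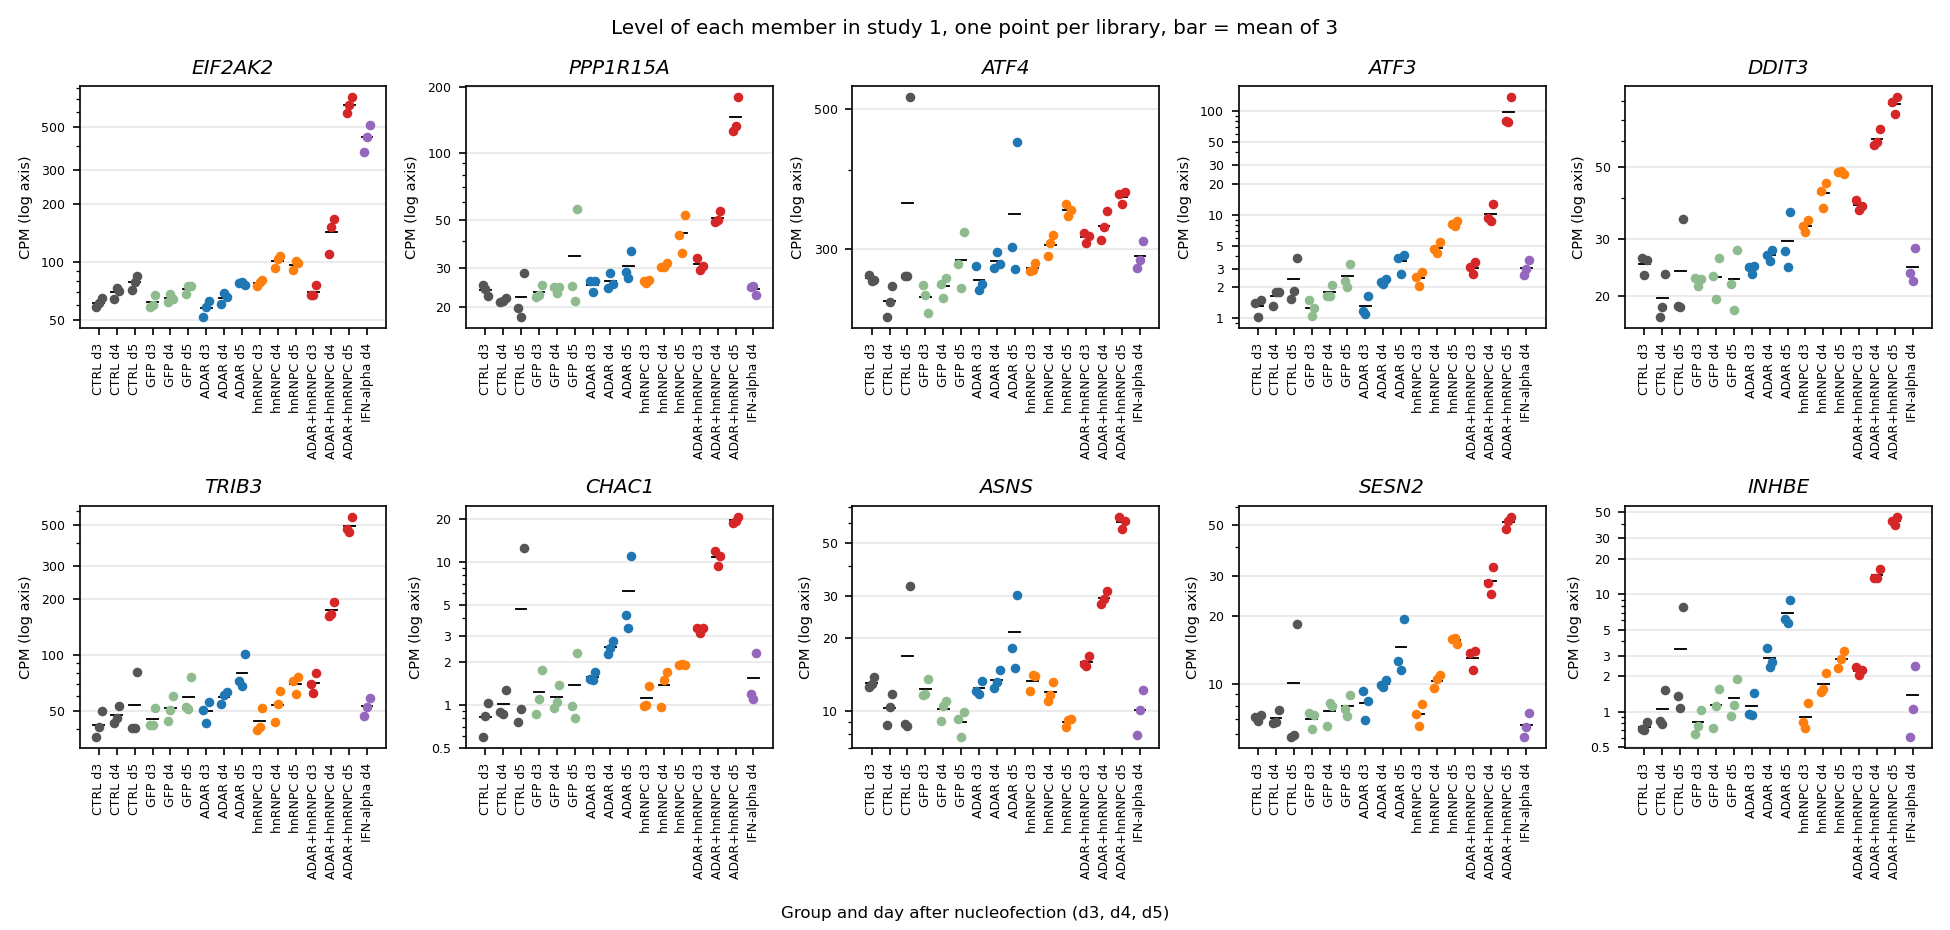
Level in CPM (log axis) of each of the 10 genes in the 48 libraries of study 1, with 1 point per library and a bar for the mean of the 3 libraries in each group and day. ADAR+hnRNPC cells on day 5 (red) are highest for every gene but ATF4, IFN-α cells (purple) stand out in EIF2AK2 alone, and CTRL day 5 replicate 3 is the isolated grey point in CHAC1, ASNS, SESN2, INHBE and ATF4.

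Reads over the 17 EIF2AK2 introns were also counted. Summed intron counts were 5.68 ± 0.997 CPM in CTRL cells on day 4, 11.3 ± 2.48 CPM in ADAR+hnRNPC cells on day 4, 49.8 ± 7.74 CPM in ADAR+hnRNPC cells on day 5 and 41.2 ± 5.26 CPM in IFN-α cells (SD, n = 3). The CTRL and IFN-α libraries did not overlap. These values are a description with no test, and introns were counted in study 1 only.

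A promoter window, from 250 bases before to 50 bases after the RefSeq start site on GRCh38.p14, was present for 9 of the 10 genes, with none for INHBE. The ISRE core of IFN-induced genes, searched as GAAANNGAA on both strands, was in the EIF2AK2 window and in no other window of the set. It was in 8.11% of all 35116 windows and in the windows of 9.86% of genes. The EIF2AK2 match begins 6 bases before the start site. It is shown with 40 bases before it and the bases up to shortly behind the start site (reverse strand, chr2:37156961-37157026), with the match in capitals, because EIF2AK2 is the gene of the set that was called in IFN-α cells.
EIF2AK2: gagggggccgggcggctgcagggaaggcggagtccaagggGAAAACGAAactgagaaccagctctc
A match of letters is a description and does not show binding.

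IFN-α cells were compared with CTRL cells on day 4. Of the 10 genes, EIF2AK2 alone was called, where 1.32% of all genes were. ATF3 had a log2 fold change of 0.90 ± 0.25 (adjusted p = 0.0106), below the fold threshold, at 2.61, 2.98 and 3.65 CPM against 1.32, 1.80 and 1.80 CPM in CTRL cells, and it was called without IFN-alpha replicate 1. For the remaining 8 genes the log2 fold changes lay between -0.10 (SESN2) and 0.61 (CHAC1), with adjusted p from 0.146 to 0.953. IFIH1, which encodes the dsRNA sensor MDA5, rose by 2.97, and OAS1, an IFN-induced oligoadenylate synthetase, by 5.73 on the log2 scale in the same libraries.

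PPP1R15A, also known as GADD34, encodes the subunit that directs protein phosphatase 1 to eIF2, and is at chr19:49375469-49379316 (forward strand, GRCh37). It was at 21.2, 21.3 and 22.0 CPM in CTRL cells on day 4, at 30.5, 30.5 and 31.7 CPM in hnRNPC cells and at 48.7, 49.8 and 54.7 CPM in ADAR+hnRNPC cells. On day 5, ADAR+hnRNPC cells reached 126, 133 and 180 CPM, against 19.87, 18.04 and 28.61 CPM in CTRL cells. The groups were ordered in this way without overlap on both days. The log2 fold change in ADAR+hnRNPC cells was 1.25 ± 0.19 on day 4 and 2.72 ± 0.20 on day 5 (edgeR adjusted p = 8.19e-07 and 5.78e-15), the latter 2.95 without CTRL day 5 replicate 3. In hnRNPC cells on day 5 it was 0.97 (adjusted p = 3.49e-05), just under the fold threshold, and it was called at 1.19 without CTRL day 5 replicate 3 and also without hnRNPC day 5 replicate 2. GFP day 5 replicate 3 was at 55.6 CPM, with 25.1 and 21.4 CPM in the other GFP libraries of the day.

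The PPP1R15A promoter window held the palindromic cAMP response element, searched as TGACGTCA, which was in 1.85% of windows and in 2.25% of genes. It begins 58 bases before the start site (chr19:48872323-48872410, forward strand, GRCh38.p14). The match is in capitals with 40 bases on each side, as the only one of the set.
PPP1R15A: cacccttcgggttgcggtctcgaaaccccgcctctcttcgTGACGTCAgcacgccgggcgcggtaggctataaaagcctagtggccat

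ATF4, the transcription factor at the center of the response, changed little in mRNA level. It is at chr22:39915700-39918688 (forward strand, GRCh37). On day 4 it was at 234, 248 and 262 CPM in CTRL cells, at 279, 297 and 284 CPM in ADAR cells, at 292, 307 and 315 CPM in hnRNPC cells and at 310, 324 and 345 CPM in ADAR+hnRNPC cells. The targeted groups lay above CTRL cells without overlap, but the log2 fold changes were 0.21 (adjusted p = 0.546), 0.30 (adjusted p = 0.0664) and 0.40 ± 0.14 (adjusted p = 0.013). On day 5, ADAR+hnRNPC cells were at 366, 353 and 369 CPM, below the 521 CPM of CTRL replicate 3 and above the 272 CPM of the other CTRL libraries. The day 5 log2 fold change was 0.03 with all CTRL libraries and 0.42 ± 0.10 (adjusted p = 0.00035) without replicate 3. ATF4 was not called in any comparison of either study.

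ATF3, a stress-induced transcription factor, had the largest fold change of the set on day 5. It is at chr1:212738676-212794119 (forward strand, GRCh37). On day 4 it was at 1.32, 1.80 and 1.80 CPM in CTRL cells, at 4.63, 4.26 and 5.48 CPM in hnRNPC cells and at 9.29, 8.62 and 12.8 CPM in ADAR+hnRNPC cells. On day 5, hnRNPC cells were at 8.12, 7.71 and 8.70 CPM and ADAR+hnRNPC cells at 80.3, 78.3 and 137 CPM, against 1.53, 1.83 and 3.86 CPM in CTRL cells. ATF3 was higher on each later day in hnRNPC and in ADAR+hnRNPC cells, with no overlap between these groups on days 4 and 5. In hnRNPC cells its log2 fold changes were 0.90, 1.54 and 1.76 over days 3, 4 and 5, and in ADAR+hnRNPC cells 1.24, 2.63 and 5.35 (5.87 without CTRL day 5 replicate 3). The day 3 value in hnRNPC cells, with an adjusted p of 0.00637, crossed the fold threshold without CTRL day 3 replicate 3 or hnRNPC day 3 replicate 2, with 1 gene of the set then called.

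DDIT3 encodes CHOP, a transcription factor linked to cell death under prolonged stress. On day 4 it was at 17.2, 18.4 and 23.3 CPM in CTRL cells, at 42.3, 37.4 and 44.6 CPM in hnRNPC cells and at 58.6, 59.6 and 65.3 CPM in ADAR+hnRNPC cells. The 3 groups did not overlap. Its log2 fold change was 1.07 ± 0.16 in hnRNPC cells (adjusted p = 3.91e-07) and 1.64 ± 0.16 in ADAR+hnRNPC cells (adjusted p = 3.83e-11), and 1.01 and 1.71 on day 5, or 1.38 and 2.08 without CTRL day 5 replicate 3. The hnRNPC calls sit at the fold threshold. The day 4 call was lost without CTRL day 4 replicate 1, leaving 1 gene of the set called, and the day 5 call without CTRL day 5 replicate 1 or 2. The DDIT3 locus (chr12:57910371-57915520, reverse strand, GRCh37) overlaps MARS1 and MBD6 on the other strand and an annotated protein-coding gene on its own strand. Whether the authors counted by strand is not given in the sources used here, so reads of these genes cannot be told apart from DDIT3 reads where they overlap.

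TRIB3, a pseudokinase induced by ATF4 and CHOP, is at chr20:343479-378203 (forward strand, GRCh37). On day 4 it was at 43.0, 45.5 and 53.4 CPM in CTRL cells and at 161, 167 and 194 CPM in ADAR+hnRNPC cells, while hnRNPC cells (43.4, 54.7 and 64.0 CPM) overlapped CTRL cells. On day 5, ADAR+hnRNPC cells were at 477, 459 and 553 CPM. Within study 1 TRIB3 was called in ADAR+hnRNPC cells alone, on days 4 and 5, with log2 fold changes of 1.88 ± 0.20 on day 4 and 3.20 ± 0.21 on day 5 (3.62 without CTRL day 5 replicate 3). In the single-targeted cells of study 1 its log2 fold change was at most 0.58 (ADAR, day 5), or 0.99 without CTRL day 5 replicate 3.

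CHAC1, which degrades glutathione, is a low-level gene at chr15:41245160-41248710 (forward strand, GRCh37). CTRL cells on day 4 held 0.892, 0.864 and 1.26 CPM, ADAR cells 2.27, 2.48 and 2.79 CPM, hnRNPC cells 0.963, 1.48 and 1.70 CPM, and ADAR+hnRNPC cells 11.9, 9.35 and 10.9 CPM. ADAR cells lay above CTRL cells without overlap and hnRNPC cells did not. The log2 fold change was 1.32 ± 0.56 in ADAR cells (adjusted p = 0.298) and 3.41 ± 0.58 in ADAR+hnRNPC cells (adjusted p = 4.53e-06). The spread of CHAC1 is estimated over all libraries of study 1, and without CTRL day 5 replicate 3 the ADAR value was 1.32 ± 0.33 (adjusted p = 0.0494).

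On day 5, CHAC1 was at 0.758, 0.935 and 12.4 CPM in CTRL cells, at 4.22, 3.42 and 10.9 CPM in ADAR cells, at 1.89, 1.92 and 1.88 CPM in hnRNPC cells and at 18.7, 19.3 and 20.5 CPM in ADAR+hnRNPC cells. The hnRNPC libraries lay between the CTRL libraries, above the lower 2 and below replicate 3. The log2 fold change of CHAC1 in hnRNPC cells was accordingly -1.31 (adjusted p = 0.031) with all CTRL libraries and 1.16 (adjusted p = 0.00928) without replicate 3. In ADAR cells it was 0.40 with replicate 3 and 2.87 ± 0.40 without it, and in ADAR+hnRNPC cells 2.05 and 4.52. The ADAR value of 2.87 still includes the ADAR library at 10.9 CPM. The hnRNPC call with all CTRL libraries was also lost without any 1 of the hnRNPC day 5 libraries.

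**Figure D3:**
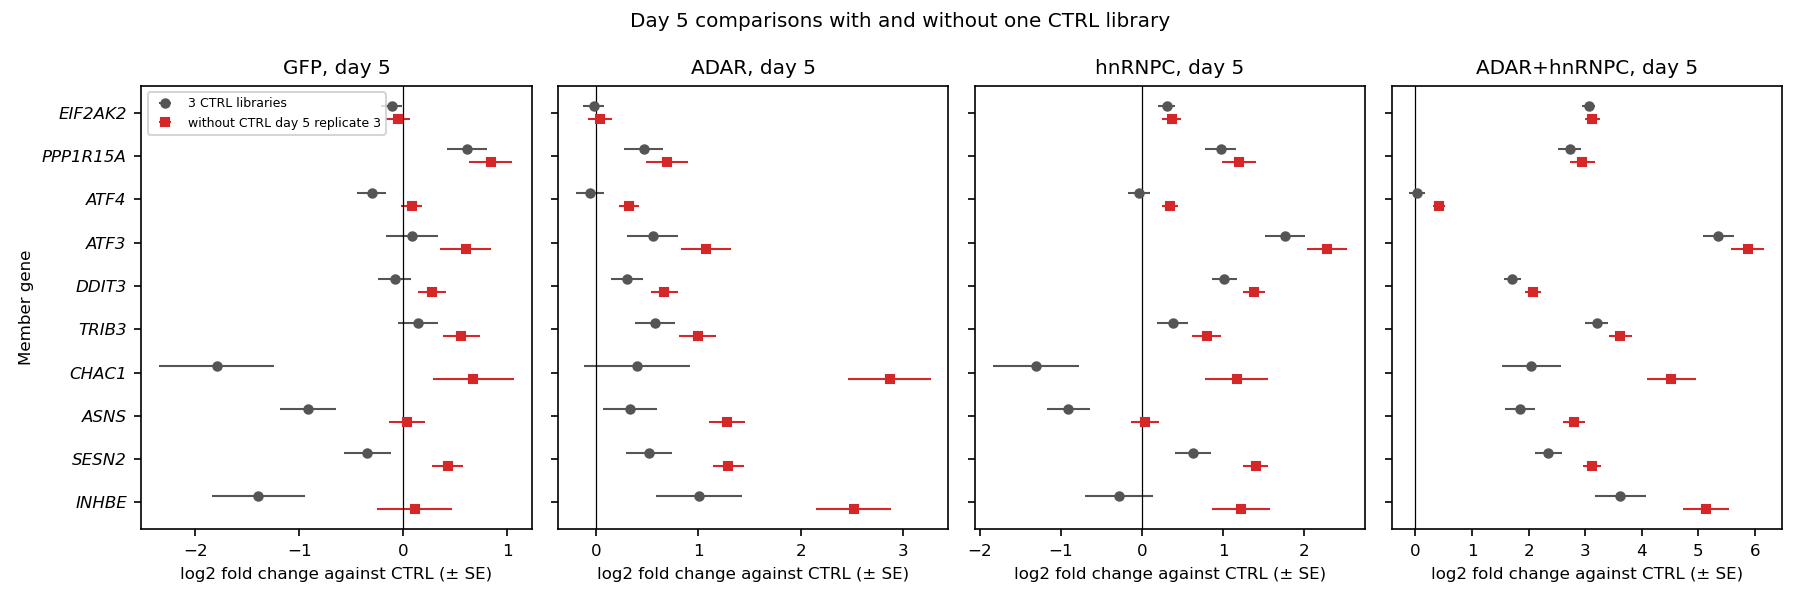
Log2 fold change against CTRL cells on day 5 (horizontal axis, ± SE) of the 10 genes in GFP, ADAR, hnRNPC and ADAR+hnRNPC cells, with all 3 CTRL libraries (grey circles) and without CTRL day 5 replicate 3 (red squares). CHAC1, ASNS and INHBE shift most and change sign in GFP and hnRNPC cells (ASNS from -0.91 to 0.04 in hnRNPC cells), and EIF2AK2 hardly moves. SESN2, DDIT3 and ATF4 also change sign in GFP cells, and ATF4 does so in ADAR and hnRNPC cells.

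INHBE, which encodes an activin beta subunit, had a pattern close to that of CHAC1. It is at chr12:57846106-57853063 (forward strand, GRCh37). On day 4 it was at 0.828, 0.776 and 1.53 CPM in CTRL cells, at 3.47, 2.42 and 2.63 CPM in ADAR cells, at 1.46, 1.57 and 2.11 CPM in hnRNPC cells and at 13.9, 13.7 and 16.4 CPM in ADAR+hnRNPC cells. The ADAR cells lay above the CTRL cells and below the ADAR+hnRNPC cells. The log2 fold change was 1.43 ± 0.45 (adjusted p = 0.136, or 0.0184 without CTRL day 5 replicate 3) in ADAR cells and 3.80 ± 0.47 (adjusted p = 1.02e-08) in ADAR+hnRNPC cells. On day 5, ADAR+hnRNPC cells held 42.2, 39.3 and 45.7 CPM, a log2 fold change of 3.62 with CTRL replicate 3 (7.86 CPM) and 5.13 without it. In hnRNPC cells the day 5 value was -0.29 with that library and 1.22 (adjusted p = 0.00336) without it.

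ASNS, asparagine synthetase, is at chr7:97480989-97501854 (reverse strand, GRCh37), and was at 8.74, 10.3 and 11.8 CPM in CTRL cells, at 12.4, 13.1 and 14.7 CPM in ADAR cells, at 10.9, 11.7 and 13.1 CPM in hnRNPC cells and at 27.7, 29.2 and 31.3 CPM in ADAR+hnRNPC cells on day 4. ADAR+hnRNPC cells were alone in being far from CTRL cells, with a log2 fold change of 1.52 ± 0.27 (adjusted p = 9.27e-06). On day 5 they held 63.8, 57.0 and 61.7 CPM against 8.78, 8.66 and 33.0 CPM in CTRL cells, a log2 fold change of 1.85, or 2.80 without CTRL replicate 3. hnRNPC cells held 8.51, 9.17 and 9.19 CPM, and their log2 fold change was -0.91 (adjusted p = 0.00313) with this library and 0.04 (adjusted p = 0.859) without it. ASNS was called lower in hnRNPC cells without CTRL day 5 replicate 1 or 2.

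SESN2, sestrin 2, which restrains the growth kinase complex mTORC1, is at chr1:28586029-28609002 (forward strand, GRCh37). On day 4 it was at 6.73, 6.78 and 7.71 CPM in CTRL cells, at 9.93, 9.70 and 10.4 CPM in ADAR cells, at 9.61, 10.5 and 10.96 CPM in hnRNPC cells and at 27.9, 24.8 and 32.6 CPM in ADAR+hnRNPC cells. Both singly targeted groups lay above the CTRL group and far below the ADAR+hnRNPC group. Its log2 fold change was 2.01 ± 0.23 in ADAR+hnRNPC cells (adjusted p = 3.13e-09), 0.50 (adjusted p = 0.342) in ADAR cells and 0.55 (adjusted p = 0.0424) in hnRNPC cells. On day 5, hnRNPC cells held 15.8, 15.9 and 15.1 CPM, and ADAR+hnRNPC cells 48.2, 51.9 and 54.3 CPM. The day 5 log2 fold change in ADAR+hnRNPC cells was 2.35, or 3.12 without CTRL day 5 replicate 3, and in hnRNPC cells 0.62 or 1.40.

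The promoter windows of ATF3, CHAC1 and ASNS held the core of the C/EBP-ATF response element that ATF4 dimers bind, searched as TGATGNAA on both strands. It was in 3.62% of windows and in 4.46% of genes, and in none of the other 6 windows of the set. The matches are in capitals with 40 bases on each side, read 5′ to 3′ along the gene. They lie at chr1:212565176-212565263 (forward strand) for ATF3, chr15:40953222-40953309 (forward strand) for CHAC1 and chr7:97872429-97872516 (reverse strand) for ASNS, all on GRCh38.p14. They are shown as the only matches of the set. These 3 genes were called higher in ADAR+hnRNPC cells on days 4 and 5. EIF2AK2, PPP1R15A, DDIT3, TRIB3 and SESN2 were called higher on these days too, and their windows held no match. The CHAC1 match is on the opposite strand of the gene.
ATF3: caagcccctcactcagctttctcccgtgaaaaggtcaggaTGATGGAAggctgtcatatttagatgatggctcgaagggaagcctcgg
CHAC1: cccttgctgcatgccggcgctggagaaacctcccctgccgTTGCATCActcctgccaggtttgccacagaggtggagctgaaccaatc
ASNS: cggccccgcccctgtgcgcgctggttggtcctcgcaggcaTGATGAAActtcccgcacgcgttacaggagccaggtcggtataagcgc
The matches begin 191, 209 and 68 bases before the start sites, in this order.

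Intron counts of these genes were low, and are a description with no test. CHAC1 introns summed to 0.0879 ± 0.0301 CPM in CTRL cells and 1.22 ± 0.372 CPM in ADAR+hnRNPC cells on day 4, from as few as 9 counts in a library. In the same groups the mean over INHBE introns was 0.172 and 1.56 CPM, over ASNS introns 1.64 and 5.45 CPM, over SESN2 introns 1.09 and 3.51 CPM, and over ATF3 introns 1.98 and 7.04 CPM. ATF4 introns were at 4.10 ± 0.884 and 4.82 ± 1.11 CPM. For CHAC1, INHBE, ASNS, SESN2 and ATF3 the libraries of the 2 groups did not overlap, and for ATF4 they did. In hnRNPC cells of day 4 the mean was 0.146 CPM for CHAC1, 0.339 CPM for INHBE and 1.94 CPM for ASNS introns. It was 2.14 CPM for SESN2, 4.21 CPM for ATF3 and 4.47 CPM for ATF4 introns.

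The interaction of ADAR and hnRNPC targeting asks whether the log2 change in ADAR+hnRNPC cells differs from the sum of both single changes, and a gene was called here at an adjusted p of at most 0.05. On day 3 no gene was called in the set or among all genes (0%). In edgeR 6 of 9 genes of the set tested had an unadjusted p under 0.05, where 1325 of all 13131 genes did. DESeq2 called none of the 9 and 40 genes in all on that day, limma voom called 0, and INHBE was under the count filter of this fit. On day 4, 6 of 10 genes were called, all above the sum, where 4.03% of all genes were called. They were INHBE (1.67 ± 0.33), CHAC1 (1.65 ± 0.29), TRIB3 (1.36 ± 0.18), SESN2 (0.97 ± 0.14), ASNS (0.93 ± 0.16) and PPP1R15A (0.44 ± 0.10). EIF2AK2 had an interaction of 0.60 ± 0.17 on day 4 (adjusted p = 0.0737), ATF3 one of 0.65 ± 0.24 (adjusted p = 0.15), DDIT3 one of 0.13 ± 0.15 and ATF4 one of -0.10 ± 0.09. A fit of all 48 libraries called 3 genes on day 4 (SESN2, EIF2AK2 and TRIB3), and RLE size factors 5. With the replicate block 8 were called, EIF2AK2 (0.58, adjusted p = 0.00267) and ATF3 (0.63, adjusted p = 0.0241) being added. PPP1R15A was lost without CTRL replicate 3, hnRNPC replicate 1 or 2, ADAR replicate 3 or ADAR+hnRNPC replicate 3 of day 4, and EIF2AK2 was called without ADAR+hnRNPC day 4 replicate 1.

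On day 5, 8 of 10 genes had an interaction above the sum, in a fit in which 48.2% of all genes were called. The largest were ATF3 (3.02 ± 0.39), CHAC1 (2.93 ± 1.03), INHBE (2.88 ± 0.69) and EIF2AK2 (2.76 ± 0.11). DESeq2 called 5 of them, without CHAC1, INHBE and SESN2, and limma voom 7. ATF4 (0.11) and DDIT3 (0.37) were not called. With that CTRL library left out, 44% of all genes and 6 genes of the set were called. CHAC1 then had an interaction of 0.49 ± 0.47 (adjusted p = 0.423) and SESN2 of 0.43 ± 0.20 (adjusted p = 0.104), whereas EIF2AK2 was at 2.71 ± 0.11, ATF3 at 2.51 ± 0.30, TRIB3 at 1.83 ± 0.19, ASNS at 1.48 ± 0.26, INHBE at 1.39 ± 0.25 and PPP1R15A at 1.05 ± 0.22. ADAR day 5 replicate 3, the highest of its group in CHAC1, stayed in this fit. No fit left out both libraries, so the interaction with neither of them is not known. The SESN2 call was also lost without any 1 of the hnRNPC or ADAR+hnRNPC libraries, and CHAC1 and SESN2 were both lost without ADAR day 5 replicate 1 or 2. The interaction on day 5 was thus common among all genes tested, and the count for the set is read against that share.

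In study 2, with a WT clone and other gRNAs, ADAR targeting alone moved the set. In total RNA 7 of 10 genes were called higher, where 2.93% of all genes were called, and in cytosolic RNA the same 7, against 4.95%. These were ATF3, DDIT3, TRIB3, CHAC1, ASNS, SESN2 and INHBE. The total RNA count was 8 without CTRL total replicate 1 and 6 without CTRL total replicate 2. The median log2 fold change over the set was 1.33 in total and 1.23 in cytosolic RNA, against 0.07 and 0.00 over all genes. ASNS was at 11.8 and 12.3 CPM in CTRL total RNA and at 46.0 and 45.3 CPM in ADAR total RNA, a log2 fold change of 1.92 ± 0.17 (edgeR adjusted p = 2.96e-06). TRIB3 was at 56.7 and 49.5 CPM in CTRL and at 160 and 145 CPM in ADAR cells (1.52 ± 0.14). CHAC1 was at 1.77 and 1.37 CPM in CTRL and at 12.5 and 9.88 CPM in ADAR cells (2.83 ± 0.21). For these 3 genes the CTRL and ADAR libraries were far apart and the replicates close.

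INHBE had the largest log2 fold change in ADAR cells of study 2, 4.07 ± 0.35 in total and 4.92 ± 0.39 in cytosolic RNA. It was at 1.22 and 0.364 CPM in CTRL total RNA, at 0.390 and 0.359 CPM in CTRL cytosolic RNA and at 12.1 and 10.7 CPM in ADAR cytosolic RNA. SESN2 (1.42), DDIT3 (1.24) and ATF3 (1.12) were called with smaller changes in total RNA. The ATF3 call was lost without CTRL total replicate 2 or either ADAR total library, and in cytosolic RNA without CTRL cytosolic replicate 1 or ADAR cytosolic replicate 2. EIF2AK2 was not called in ADAR cells (0.27 ± 0.22, adjusted p = 0.447 in total and 0.36 ± 0.22, adjusted p = 0.257 in cytosolic RNA), nor were ATF4 (0.27 and 0.04) or PPP1R15A (0.87, adjusted p = 0.0199 and 0.57, adjusted p = 0.0826). PPP1R15A was called in total RNA without CTRL total replicate 1 or ADAR total replicate 1.

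**Figure D4:**
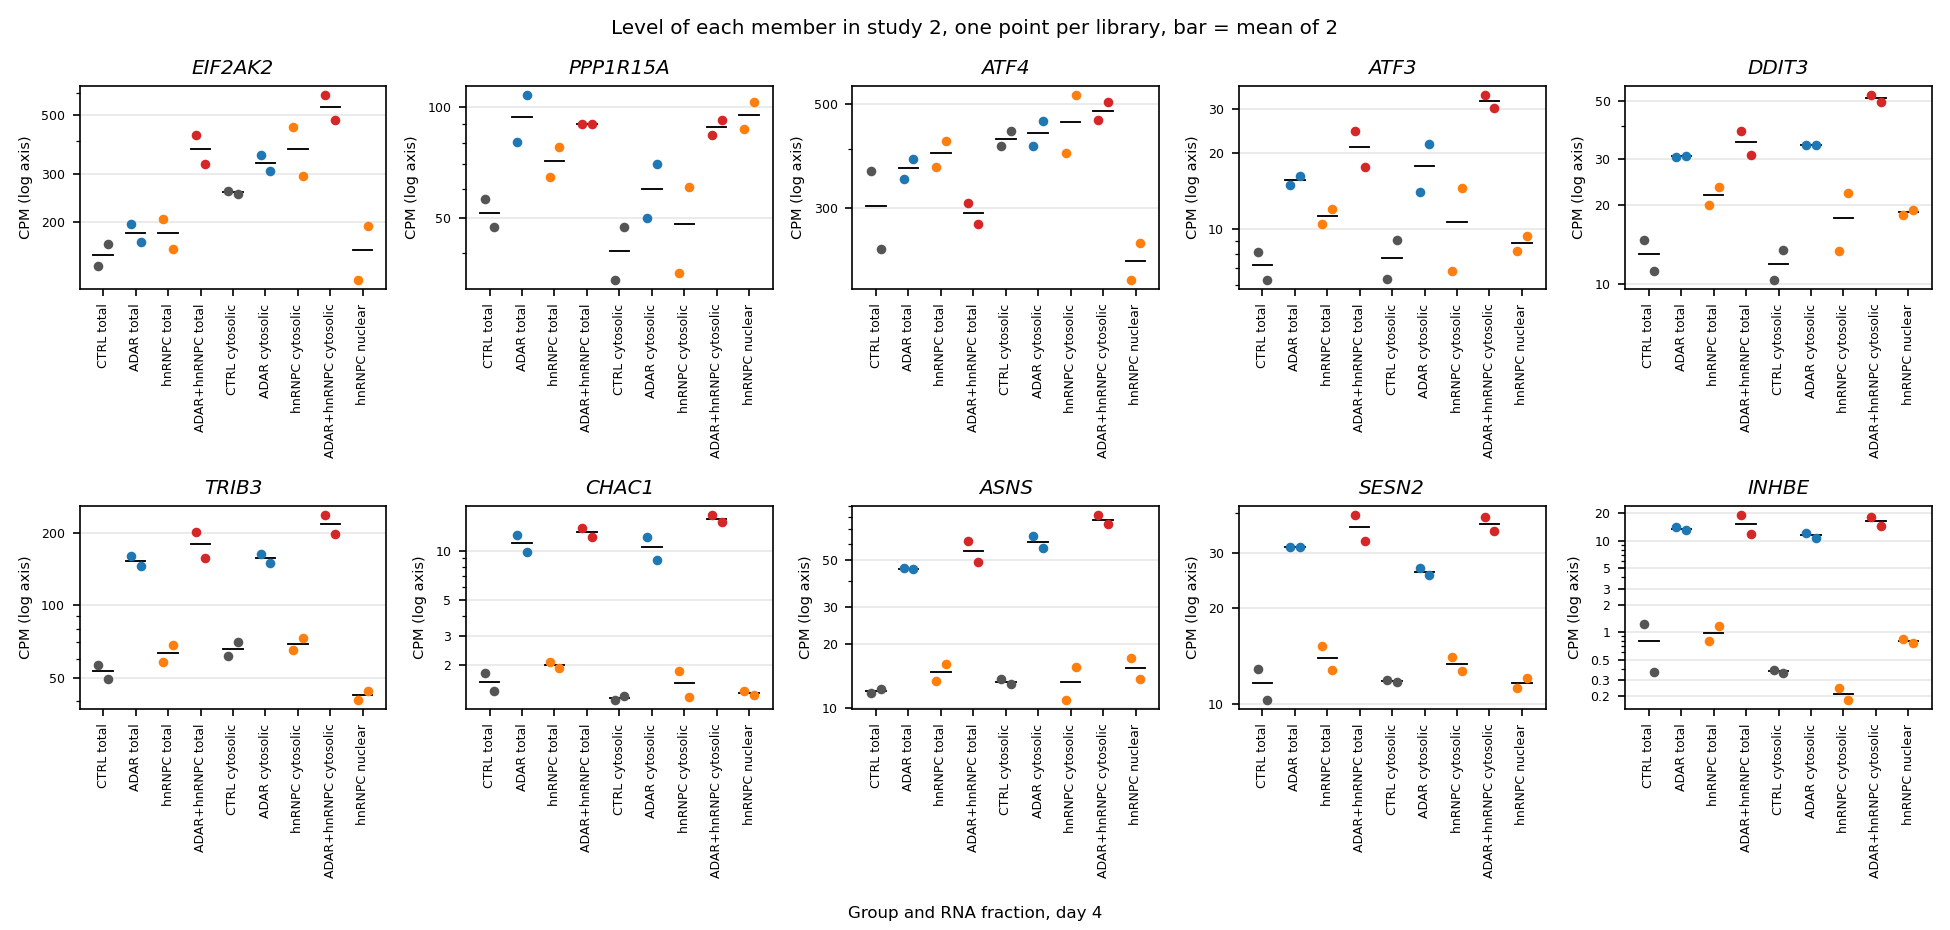
Level in CPM (log axis) of each of the 10 genes in the 18 libraries of study 2, with 1 point per library and a bar for the mean of the 2 libraries in each group and RNA fraction. In TRIB3, CHAC1, ASNS, SESN2 and INHBE the ADAR (blue) and ADAR+hnRNPC (red) libraries lie together above the CTRL (grey) and hnRNPC (orange) libraries, whereas in EIF2AK2 the ADAR+hnRNPC libraries are highest within each fraction.

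ADAR+hnRNPC cells of study 2 had 8 genes of the set called in total RNA (background 4.29%) and 9 in cytosolic RNA (7.9%), all higher, and the 8 of total RNA were called with either CTRL total library left out. The genes added to those of ADAR cells were EIF2AK2 in both fractions and PPP1R15A in cytosolic RNA. EIF2AK2 was at 137 and 166 CPM in CTRL, 197 and 168 CPM in ADAR, 206 and 159 CPM in hnRNPC and 419 and 327 CPM in ADAR+hnRNPC total RNA, a log2 fold change of 1.30 ± 0.22 (adjusted p = 0.000437) in the last. ADAR and ADAR+hnRNPC cells held close levels of SESN2 in total RNA (31.2 and 31.1 against 39.3 and 32.7 CPM) and of CHAC1 (12.5 and 9.88 against 13.8 and 12.1 CPM). Whether these 2 groups differ was not tested. In ADAR+hnRNPC total RNA the median log2 fold change over all genes was -0.12, so these changes stand somewhat further from the other genes than their values say. Beside these calls, markers moved too: FCGR1A and ITGAM of the 8 monocytic markers tested and NCAM1, a marker of other cell types, were called higher in cytosolic RNA of ADAR and of ADAR+hnRNPC cells, and their part in the results was not tested. The cytosolic calls of EIF2AK2 (1.05) and PPP1R15A (1.13) were lost without ADAR+hnRNPC cytosolic replicate 1 and without CTRL cytosolic replicate 1, respectively, with 8 genes then called.

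hnRNPC targeting alone gave no call in the set in study 2, in total RNA (background 0.733%) or in cytosolic RNA (0.484%). In edgeR, 3 genes passed an unadjusted p under 0.05 in total and 2 in cytosolic RNA, where 3149 and 2192 of all 13650 genes did. DESeq2 and limma voom called 0 of the set in both. DDIT3 had the largest log2 fold change in total RNA, 0.75 ± 0.20 (adjusted p = 0.0381), with 20.1 and 23.5 CPM against 14.7 and 11.2 CPM in CTRL cells. INHBE was called in total RNA without CTRL total replicate 1, with 1 gene of the set then called. HNRNPC mRNA had log2 fold changes of -0.69 in total and -0.88 in cytosolic RNA of hnRNPC cells of study 2, beside -1.18 on day 4 of study 1, and ADAR mRNA one of -0.77 in ADAR total RNA. The total RNA value of HNRNPC rests on CTRL libraries that lay apart, at 910 and 581 CPM, against 433 and 493 CPM in hnRNPC libraries. The clones, gRNAs and depth all differ between the studies, so the difference between them in the set was not tested and its source cannot be told apart.

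Between RNA fractions, no gene of the set was called over the 4 cytosolic against the 4 total groups (background 8.89%). In edgeR 6 genes of the set passed an unadjusted p under 0.05, where 10641 of all 13650 genes tested did. Neither DESeq2 nor limma voom called any. EIF2AK2 was higher in cytosolic RNA by 0.79 ± 0.11 (adjusted p = 5.31e-06) and ATF4 by 0.42 ± 0.08 (adjusted p = 0.000252) on the log2 scale. PPP1R15A (-0.40, adjusted p = 0.0041) and INHBE (-0.87, adjusted p = 0.000606) were on the other side. These values are relative to a median of 0.17 over all genes. INHBE was called lower without CTRL total replicate 2, with 1 gene of the set then called.

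In hnRNPC cells, cytosolic against nuclear RNA gave 2 calls where 30.5% of all genes were called and the median over all genes was 0.27. EIF2AK2 was at 450 and 297 CPM in cytosolic and at 122 and 194 CPM in nuclear RNA (1.24 ± 0.22, adjusted p = 8.98e-05). INHBE was at 0.244 and 0.183 CPM in cytosolic and at 0.832 and 0.759 CPM in nuclear RNA (-1.90 ± 0.49, adjusted p = 0.00239), from as few as 12 counts. PPP1R15A (-0.99) lay on the nuclear side, and ATF4 (0.99) and TRIB3 (0.71) on the cytosolic side, with adjusted p of at most 0.05 and less than the fold threshold. With 2 libraries a group single libraries decide these calls. EIF2AK2 was lost without hnRNPC cytosolic replicate 1 or hnRNPC nuclear replicate 1. PPP1R15A was called without hnRNPC cytosolic replicate 2 or nuclear replicate 1, and ATF4 without cytosolic replicate 1 or nuclear replicate 2.

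EIF2AK2 also carries sites of A-to-I editing, the modification that ADAR makes. The authors' editing table gives reads and edited reads per site, and 60 sites in EIF2AK2 had at least 10 reads in every library of study 1. All 60 lie in its 3′ UTR, between chr2:37327614 and chr2:37331753 (GRCh37), and at an A of the transcript strand. Of all reads over these sites, 6.12%, 5.37% and 7.06% were edited in CTRL libraries of day 3, and 1.66%, 1.65% and 1.47% in ADAR libraries of day 3. Over the 3 days the mean was 5.97% in CTRL and 1.57% in ADAR libraries, a difference of -4.40 percentage points. The mean was 6.60% in hnRNPC and 2.21% in ADAR+hnRNPC libraries, a difference of -4.39 percentage points. Because the authors kept sites that reached a minimum editing frequency in at least 1 ADAR-intact sample, these sites were chosen partly by the groups in which editing is high, and the differences are a description with no test.

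Editing of EIF2AK2 was highest in IFN-α cells, at 15.5% ± 0.742 against 5.93% ± 0.407 in CTRL cells of day 4 (SD, n = 3), from 13275 or more reads in each IFN-α library. In ADAR+hnRNPC cells the days gave 1.81%, 1.79% and 3.03% ± 0.195 in order. Libraries did not overlap between IFN-α and CTRL cells, nor between days 4 and 5 of ADAR+hnRNPC cells, and neither difference was tested. IFN-α cells are ADAR-intact, so some sites can have been kept through their editing in this group. The difference between IFN-α and CTRL cells is therefore a description over sites chosen partly by it. ADAR mRNA was 1236 CPM in IFN-α cells, 1322 CPM in ADAR+hnRNPC cells on day 5 and 404 CPM in CTRL cells on day 4. Whether ADAR mRNA level has a part in these editing values was not tested. In study 2, over 94 sites of the same 3′ UTR, editing was 10.6% in CTRL, 11.5% in hnRNPC, 2.30% in ADAR and 1.97% in ADAR+hnRNPC total RNA, and 11.2%, 11.05%, 2.14% and 2.07% in cytosolic RNA in that order. The levels of the 2 studies rest on different site sets and read lengths and are not compared.

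**Figure D5:**
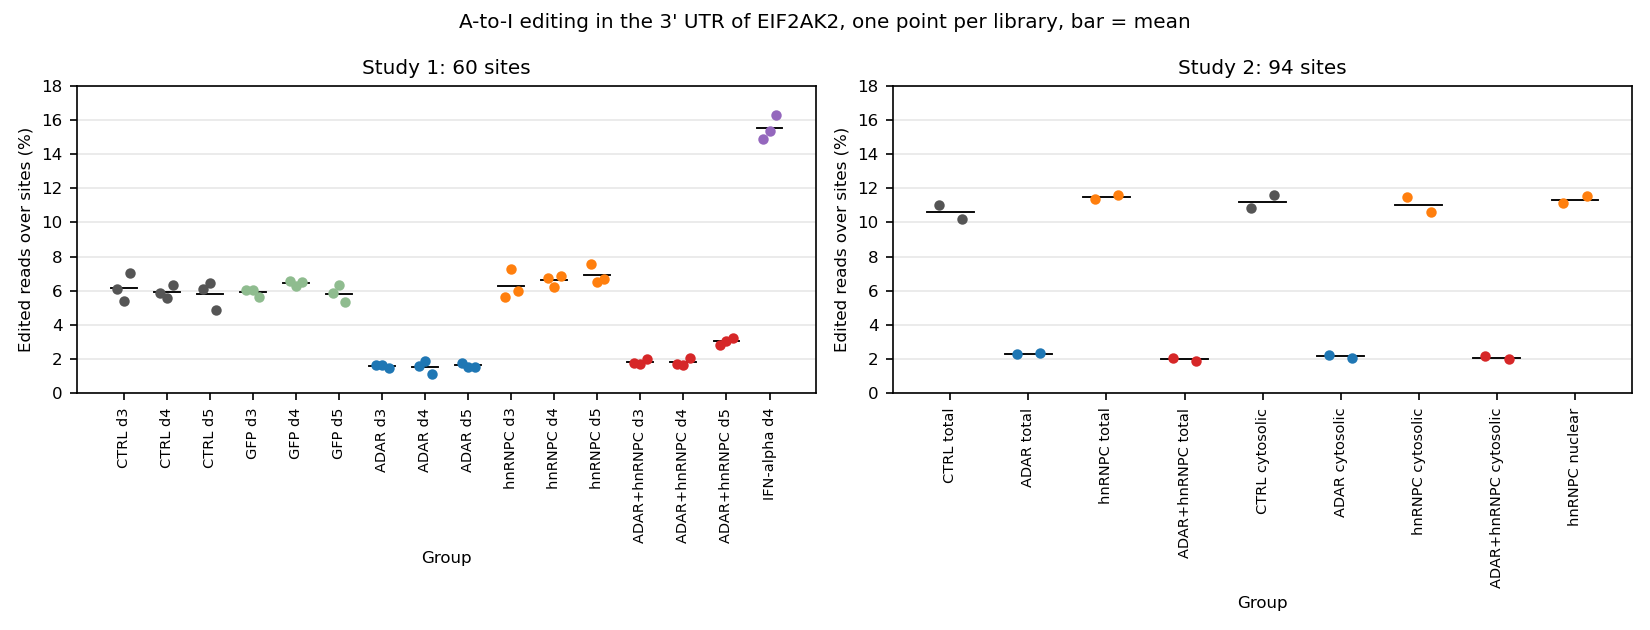
Edited reads as a percentage of all reads over the sites in the EIF2AK2 3′ UTR (vertical axis), with 1 point per library and a bar for the group mean, in study 1 (60 sites, left) and study 2 (94 sites, right). ADAR and ADAR+hnRNPC libraries lie at 3.22% or below, other libraries at 4.89% or above, and IFN-α libraries at 14.9% or above. The sites were chosen partly by editing in ADAR-intact samples, which include the IFN-α libraries.

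The sites differ widely among themselves, with a median of 2.88% and a highest value of 44.1% in CTRL cells, and 5 of 60 at 20% or more. The 3 sites with the highest percentage in CTRL cells are shown with 10 bases on each side, 5′ to 3′ on the transcript strand (reverse strand of GRCh37), with the edited A in capitals.
Site at 37327662 (chr2:37327652-37327672): ctaaataactAgaaactgtat
Site at 37330614 (chr2:37330604-37330624): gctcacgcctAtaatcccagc
Site at 37331525 (chr2:37331515-37331535): agccatgatcAtgttactgca
Summed over days, editing at the first was 44.1% of 680 reads in CTRL cells and 11.2% of 644 reads in ADAR cells. At the second it was 32.4% in CTRL and 7.75% in ADAR cells, and at the third 24.8% and 4.73%. Since these sites were chosen by their CTRL values, their CTRL percentages are a description.

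Among the other genes of the set, DDIT3 had 5 intronic sites with enough reads, and editing was near 0. It was 0.374% in CTRL and 0% in ADAR libraries. The edited CTRL reads came from 3 libraries with 1 or 2 edited reads each, and the shallowest ADAR library, of day 4, had 0 edited among 73 reads, which allows a share of up to 4.11% in that library (3 reads of the total, for counting error only). The authors extended the cluster of editing sites in the EIF2AK2 3′ UTR by 1000 bases on each side (chr2:37326658-37332645, GRCh37). Reads over this region were at 35.4 CPM in CTRL cells of day 4, 209 CPM in IFN-α cells and 336 CPM in ADAR+hnRNPC cells of day 5. The region lies inside EIF2AK2, so these reads overlap those counted for the gene and are not a separate measure.

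The wider pathway was followed in gene lists. Of 24 other ATF4 target genes, 22 were tested in study 1. In ADAR+hnRNPC cells the number called higher was 2, 8 and 9 over days 3, 4 and 5 (where 1.17%, 4.71% and 15.6% of all genes were called), with 1 lower on the last day (PYCR1), and the list median was 0.22, 0.60 and 0.79. Without CTRL day 5 replicate 3 the day 5 count was 13 higher and 1 lower, with a median of 1.26. On day 4 the largest changes were in NUPR1 (3.82), a stress-induced nuclear protein, ADM2 (2.40), an adrenomedullin peptide, DDIT4 (1.68), an mTORC1 inhibitor, VEGFA (1.52), an angiogenic factor, SLC3A2 (1.51), an amino acid transporter subunit, and ULBP1 (1.42), an NKG2D ligand. In ADAR cells of study 2, 9 of 24 were called higher in total and 10 in cytosolic RNA (2.93% and 4.95% of all genes), with STC2 (3.41 in total RNA), a secreted glycoprotein, NUPR1 (2.40), CTH (2.38), which makes cysteine, and GDF15 (2.14), a stress cytokine, at the head. ADAR+hnRNPC cells of study 2 had 11 and 13 called higher (4.29% and 7.9%).

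In hnRNPC cells, where ATF3 and DDIT3 were called higher, more ATF4 targets were called lower than higher on day 5. NUPR1 was called higher (1.71) and 7 of 22 lower, where 7.72% of all genes were called in either direction, among them GPT2 (-1.59), an aminotransferase, CTH (-1.48), ADM2 (-1.26), PYCR1 (-1.11), which makes proline, and PSAT1 (-1.09), which makes serine. Leaving out CTRL day 5 replicate 3, the counts were 3 higher (DDIT4, JDP2 and NUPR1) and 3 lower (CTH at -1.11, GPT2 at -1.32 and PYCR1 at -1.07). PYCR1 was also called lower in hnRNPC cells on day 3 (-1.03) and day 4 (-1.18), where that library does not enter the contrast. By edgeR, DESeq2 and limma voom 0 ATF4 targets were called in IFN-α cells, where 5 of 22 passed an unadjusted p under 0.05 in edgeR. The same holds for hnRNPC cells of study 2, where 9 of 24 passed it in total and 6 of 24 in cytosolic RNA. Of all 13650 genes, 3149 and 2192 passed it there. The number of all genes passing it in IFN-α cells is not given here. CTRL day 5 against day 3 had 4 called higher (ADM2, ULBP1, DDIT4 and VEGFA), and 0 without CTRL day 5 replicate 3.

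Among 19 genes of the other eIF2 kinases and the eIF2 phosphorylation machinery, few were called against CTRL cells. Beside eIF2 itself, the list holds subunits of eIF2B and of protein phosphatase 1, among others. The share of all genes called was 4.71% and 15.6% in ADAR+hnRNPC cells on days 4 and 5, and 7.72% in hnRNPC cells on day 5. EIF2S3, the gamma subunit of eIF2, was lower in ADAR+hnRNPC cells on day 4 (-1.03) and day 5 (-1.54) and in hnRNPC cells on day 5 (-1.16). IMPACT, an inhibitor of the kinase GCN2, was lower on day 5 in both (-1.03 and -1.09). The day 5 values without CTRL day 5 replicate 3 were -1.52 and -1.14 for EIF2S3 and -1.01 and -1.07 for IMPACT, all called. These were the only genes of this list called against CTRL cells in either study. Cytosolic against total RNA had 8.89% of all genes called, 82 higher and 1131 lower. EIF2AK3, the kinase PERK of the endoplasmic reticulum, was among those lower in cytosolic RNA (-1.26). So were 6 of 12 targets of ATF6 and XBP1, the endoplasmic reticulum branches of the unfolded protein response. Of these 12, edgeR, DESeq2 and limma voom called 0 in ADAR+hnRNPC cells of study 1 on any day, where 0, 4 and 7 passed an unadjusted p under 0.05 in edgeR over days 3, 4 and 5. The number of all genes passing it in these cells is not given here, so these unadjusted counts are not read against a share. In cytosolic RNA of study 2 HSP90B1 and XBP1 were called higher in ADAR cells, and XBP1 in ADAR+hnRNPC cells (4.95% and 7.9% of all genes).

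IFN-induced dsRNA sensors and effectors were called along with EIF2AK2. Of 9 tested in study 1, ADAR itself among them, 7 were called higher in ADAR+hnRNPC cells on day 4, 9 on day 5 and 8 in IFN-α cells (4.71%, 15.6% and 1.32% of all genes). IFIH1 rose by 1.21 and OAS1 by 2.98 on day 4, and by 4.46 and 6.33 on day 5 (4.42 and 6.53 without CTRL day 5 replicate 3). In ADAR cells of study 2, 7 of 9 were called higher in total RNA (2.93% of all genes), where EIF2AK2 was not, with IFIH1 at 1.24 and OAS1 at 1.69. Of 6 immediate early genes tested in study 1, which respond to many stimuli within minutes, 6 were called higher in ADAR+hnRNPC cells on day 5, 3 in hnRNPC cells on day 5, 3 in IFN-α cells and 2 (JUN and FOSB) in GFP cells on day 5, against 15.6%, 7.72%, 1.32% and 0.212% of all genes. Their day 5 counts were 6, 3 and 2 without CTRL day 5 replicate 3 as well. Of the 8 monocytic markers tested in study 1, ITGAM alone was called against CTRL cells, higher in ADAR+hnRNPC cells on days 4 and 5 and in hnRNPC cells on day 5, and LYZ was called lower in CTRL cells of day 5 than of day 3, all of them also without CTRL day 5 replicate 3. The summed level of 9 markers of other cell types was 2.40 to 6.91 CPM over the libraries of study 1 and 4.24 to 17.7 CPM in study 2, and their part in the results was not tested.

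Over the 16 group means of study 1, the genes most like EIF2AK2 in log2 CPM were PARP14 (Pearson r = 0.993), PARP9 (0.992) and SAMD9 (0.989). ADM2 (0.980) and INHBE (0.977) were among those most like CHAC1, and those most like ATF4 were DTNA (0.888), PLEKHM3 (0.887) and ABCB11 (0.871). The group means share libraries, depth and the CTRL day 5 replicate that stands apart, so these values describe likeness of pattern only.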

How the data were processed

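Total RNA (TruSeq Stranded, Ribo-Zero Gold) of 66 THP-1 libraries was sequenced on a HiSeq instrument. The authors aligned reads with STAR 2.5.4a to GRCh37 and deposited raw counts per gene (featureCounts, unique pairs, GENCODE exons), per intron (study 1), per editing cluster region and per editing site (all reads and G reads). Whether counting used strand is not given in the sources used here, and 0 columns could not be mapped to a sample. Fold changes came from edgeR 4.0.16 (R 4.3.3, TMM, quasi-likelihood test at its default prior count). The fits held 48 libraries (13193 genes with an average log2 CPM of at least 0.5), 18 libraries (13650 genes) or, for each interaction, 12 libraries. Benjamini-Hochberg adjustment ran over all genes tested. A prior count of 2 was used only in the log2 CPM values behind correlations and differences between libraries of a group. SE is the fold change over the root of F. The test was checked on simulated counts. limma 3.58.1 (voom), DESeq2 1.42.0, other scaling, no filter, a replicate block, GFP cells as control and leaving out each library were alternatives, and the fits without CTRL day 5 replicate 3 for all of study 1 were added after seeing the data. Editing was the share of G reads over sites with at least 10 reads in every library. The planned permutation test of it is not reported, since the authors' site filter used editing in ADAR-intact samples. Editing sites were annotated with GENCODE on GRCh37, and promoters came from RefSeq on GRCh38.p14. Named are all 10 genes, up to 6 called genes per comparison of the ATF4 target and eIF2 lists by fold change, IFIH1 and OAS1, the 3 genes most alike EIF2AK2, ATF4 and CHAC1, and both targeted genes; other names were chosen after their values were seen. The genes and lists were chosen with earlier results of these data known. The paper describes the replicates as independent experiments, and no source says that a shared number marks a shared day. Numbers were taken as pairs where every same-numbered pair correlated above 0.1 in its deviations, in 8 of 14 comparisons of study 1, and the blocked value stands beside a result there where it changes the call. No pair of replicates agreed within counting noise. Of the results these rules name, 1 marker gene and 1 gene alike CHAC1 are not reported here.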

Additional observations from a re-analysis of the deposited data

Results flagged for a closer look

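A test of the interaction itself (edgeR) found that the change upon joint targeting differed from the sum of both single changes for 6 genes on day 4: INHBE (1.67 on the log2 scale), CHAC1 (1.65), TRIB3 (1.36), SESN2 (0.97), ASNS (0.93) and PPP1R15A (0.44). On day 5 it did so for 8 genes: ATF3 (3.02), CHAC1 (2.93), INHBE (2.88), EIF2AK2 (2.76), ASNS (2.40), TRIB3 (2.23), PPP1R15A (1.27) and SESN2 (1.18). Without CTRL day 5 replicate 3, CHAC1 (0.49) and SESN2 (0.43) no longer passed on day 5, and 6 genes did. That fit kept ADAR day 5 replicate 3, which was also high in CHAC1. A fit of all 48 libraries called 3 genes on day 4, DESeq2 called 5 of the 8 on day 5, and PPP1R15A on day 4 was lost without any 1 of 5 libraries. The background of these calls was 4.03% of all genes on day 4 and 48.2% on day 5.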

How the results depend on the processing

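Of 25 counts of called genes, other size factors (RLE) moved 0, DESeq2 1, limma voom 3, no filter 3 and the replicate block 2 by more than 1.5 times. The replicate block gave 1 gene in ADAR cells on day 4 and 1 on day 5 (INHBE in both). In all it gained 5 calls, those of INHBE included, and lost 1, for 82 against 78, and reversed none. In study 1 the same-numbered library correlated best in 64 of 84 cases, counted per sample and comparison. Pairs of study 2 hold 2 libraries a group, with every correlation above 0.1 in 5 of 7 comparisons. Cytosolic against nuclear RNA, where the pairs did not correlate, gained PPP1R15A (-1.02). With no fold threshold the counts were 3 (hnRNPC day 3), 6 (ADAR+hnRNPC day 3), 5 (hnRNPC day 4), 7 (hnRNPC day 5), 4 (GFP day 5), 2 (IFN-α), 5 (CTRL day 5 against day 3), 1 (hnRNPC total), 6 (cytosolic against total) and 5 (cytosolic against nuclear). The share of all genes called with no fold threshold is not given here, so these counts are not read against a background. That background can be large. At an unadjusted p under 0.05, 6153 of 13193 genes passed in hnRNPC day 3 and 10641 of 13650 in cytosolic against total RNA. No filter gave 2 in ADAR day 4, 1 in ADAR day 5 and 2 in the day 3 interaction. limma voom gave 1 in ADAR day 5, 0 in GFP day 5 and 1 in CTRL over time. DESeq2 gave 5 in the day 5 interaction, a fit of 48 libraries 3 in the day 4 interaction, and a fit of day 5 alone 0 in GFP cells. Against GFP cells, hnRNPC day 4 had 1 and ADAR day 5 had 3, and the hnRNPC day 5 changes of CHAC1 (0.49) and INHBE (1.11) turned positive. The cause of these shifts was not tested.

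Leaving out 1 library at a time gave counts of 0 to 1 (hnRNPC day 3), 3 to 3 (ADAR+hnRNPC day 3), 0 to 2 (ADAR day 4), 1 to 2 (hnRNPC day 4), 8 to 9 (ADAR+hnRNPC day 4), 0 to 5 (ADAR day 5), 2 to 6 (hnRNPC day 5), 9 to 9 (ADAR+hnRNPC day 5), 0 to 3 (GFP day 5), 1 to 2 (IFN-α), 0 to 3 (CTRL over time), 5 to 7 and 6 to 8 (interaction on days 4 and 5), 0 to 1 (hnRNPC total) and 0 to 1 (cytosolic against total). GFP day 5 lost both calls without CTRL replicate 2 or 3 or any GFP library. In these fits CHAC1 in hnRNPC day 5 cells ranged from -1.80 to 1.16, INHBE from -0.71 to 1.22, and in GFP cells CHAC1 from -2.40 to 0.68 and INHBE from -1.82 to 0.11. The upper ends are those without CTRL day 5 replicate 3. In study 2 a lone library was assumed to vary like the other groups. The editing difference of EIF2AK2 ranged from -4.55 to -4.25 (ADAR) and -4.50 to -4.23 (ADAR+hnRNPC) percentage points, and that of DDIT3 from -0.525 to -0.267 and -0.0731 to 0.0764. Counts as low as 12 per library limit INHBE.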
